A study of Mus musculus with 8 samples.

Results

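Testis RNA labelled Mus musculus domesticus was compared with testis RNA labelled Mus musculus ssp, using 4 of the 8 Affymetrix expression arrays of a survey of testis in house mice. The members were chosen by the group word in each array's title: 2 arrays are titled domesticus and 2 are titled ssp, and the other 4 carry castaneus or musculus. All 4 arrays held total RNA from testis, and no allele, treatment, age or strain is given for either group. The meaning of ssp is not explained in the labels, and the word serves here only to name the group. The titles mark the 2 arrays of a group as technical replicates, and how many animals gave each RNA is not stated. The p-values below measure only the spread between such arrays and say nothing of the spread between mice.

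The testis combines seminiferous tubules, in which spermatogonia, meiotic spermatocytes and spermatids develop against Sertoli cells, with an interstitium of Leydig cells, macrophages and vessels. Leydig cells import cholesterol into mitochondria and turn it into testosterone, and late spermatids replace their histones by transition proteins and then protamines. Many metabolic enzymes have variants used mainly in male germ cells, so a testis profile is read gene by gene as well as by cell type. In whole tissue, fewer cells of a type and less RNA per cell cannot be told apart.

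Each of 12422 probe sets, groups of short probes that together report 1 transcript, has a deposited linear intensity on each array. The spermatid genes Prm1, Tnp1, Tnp2 and Odf1 and the sperm-specific lactate dehydrogenase Ldhc lay above the 99.8th percentile of intensity on all 4 arrays, and the Leydig enzyme Cyp17a1 between the 90.9th and 94.1st. Some other genes of these cells were dimmer. The protamine Prm2 lay between the 39.5th and 70.7th percentiles. Of the Leydig genes, Cyp11a1 lay between the 70.4th and 80.0th, Star between the 40.4th and 71.8th and Insl3 between the 17.1st and 51.5th. Markers of other cell types were present at uneven levels. The macrophage receptor Csf1r lay between the 70.2nd and 83.6th percentiles and Cd68 reached the 59.1st, while the leukocyte gene Ptprc reached the 31.8th and the T cell gene Cd3e the 18.01st. The epididymal genes Adam7 and Gpx5 reached the 49.7th and 44.3rd percentiles, and the liver gene Alb the 36.7th. The meiotic gene Sycp3 was at the floor, 18.7 intensity units, below which values were not distinguished, on 3 of the 4 arrays, whereas its partner Sycp1 lay between the 84.5th and 88.3rd percentiles. The replicate arrays of ssp stood further apart than those of domesticus: over all probe sets the root mean square log2 difference was 0.87 between the domesticus arrays and 1.03 between the ssp arrays. Array pairs across the groups ran from 0.97 to 1.09, so ssp replicate 1 lay closer to domesticus replicate 1 than to ssp replicate 2.

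Differences between the groups were spread over many kinds of gene, and few probe sets passed the test. Of 8874 probe sets bright enough to be tested, 61 (0.687%) passed limma at a Benjamini-Hochberg adjusted p under 0.05 with at least a 2-fold difference. Of these, 41 (0.462%) were higher in domesticus and 20 (0.225%) were higher in ssp. The smallest fold among them was 3.01, and 26 of them differed at least 8-fold. At an unadjusted p under 0.05 there were 1102 probe sets (12.4%), and 3725 (42%) had both arrays of one group above both of the other. The median log2 difference, domesticus minus ssp, was -0.05 over all probe sets tested.

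The counts depended on each of the 4 arrays. Without domesticus replicate 1 or without domesticus replicate 2 limma called 0 probe sets, while 834 and 730 had an unadjusted p under 0.05. Without ssp replicate 1 it called 16, of which 10 were among the 61, and without ssp replicate 2 it called 2, which were Agt and Tnnc1. A fit on these 4 arrays alone, without castaneus and musculus to inform the spread, called 0 probe sets, with 939 at an unadjusted p under 0.05.

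**Figure D1:**
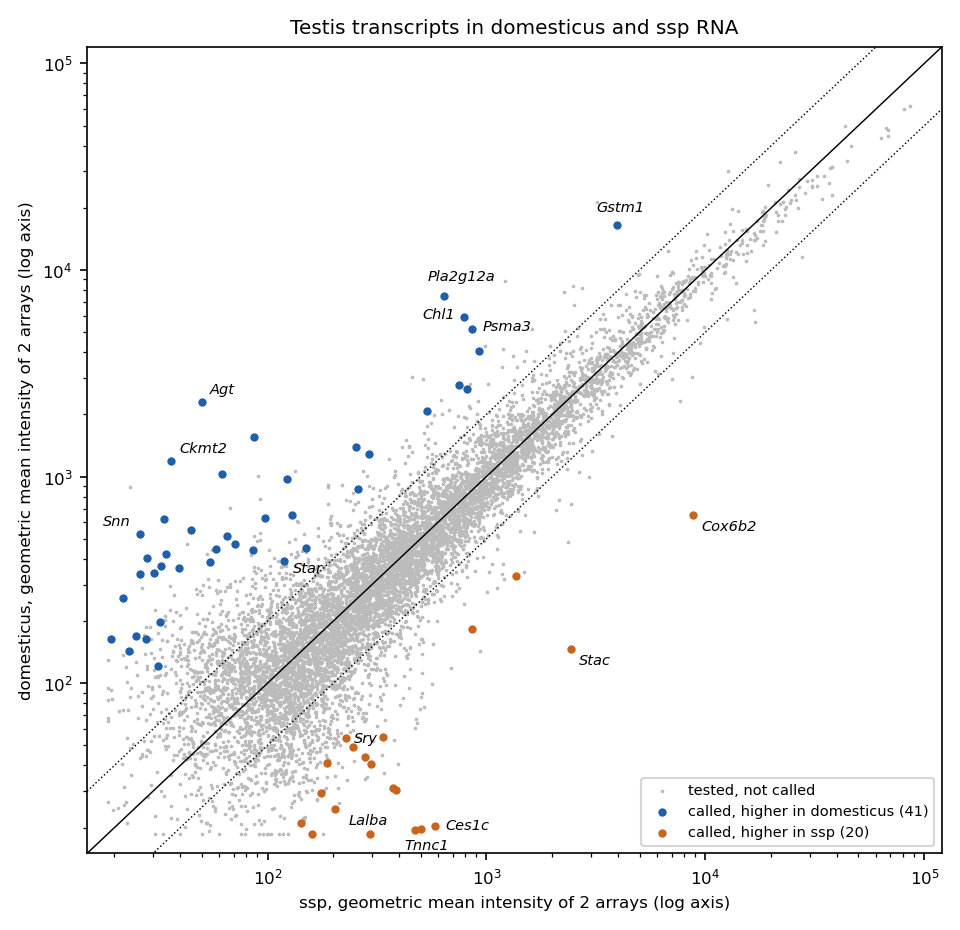
Geometric mean intensity of each tested probe set in ssp (horizontal axis, log scale) against domesticus (vertical axis, log scale), 2 arrays a group, with the solid line at equality and the dotted lines at 2-fold; grey points did not pass limma and coloured points are the 41 higher in domesticus and the 20 higher in ssp. Many coloured points lie near the edges, where the lower group is close to the floor of 18.7.

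Most calls set a clear signal in one group against a dim one in the other. In 41 of the 61 called probe sets (67.2%) the lower group lay under the 40th percentile of intensity on both of its arrays. Lalba and Cav3 had both domesticus arrays at the floor of 18.7, and their folds are lower bounds. Where 1 array of the lower group was at the floor, that array was raised to it, and the fold is a lower bound as well. The identifiers of 22 called probe sets (36.1%) carry a suffix letter, such as _f, _s or _i, against 20.4% of all probe sets tested. In the manufacturer's naming, _f and _s mark probes that can also match related transcripts. The _f suffix was on 14 called probe sets, all higher in domesticus, and its share over all probe sets tested was not computed. Among them are those of Pla2g12a, Psma3, Gstm1, Aldh9a1, Klk1b8, Itgae, Crat and Cask, besides the antibody genes. Of the called probe sets, 58 have 1 gene symbol, for 58 genes. The other 3 have no symbol and were all higher in domesticus.

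The called genes with the largest differences were Agt and Ckmt2, higher in domesticus, and Ces1c and Tnnc1, higher in ssp. Agt encodes angiotensinogen, the secreted precursor of the angiotensins. Its intensity was 2556 and 2064 on the domesticus arrays and 30 and 83.8 on the ssp arrays. The groups were far apart, 45.8-fold, although the ssp arrays differed from each other as well (limma, log2 difference 5.52, SE 0.50, adjusted p = 0.0203). Ckmt2, the sarcomeric mitochondrial creatine kinase, read 1139 and 1247 in domesticus against 38.2 and 34.1 in ssp. Both groups were tight, and the fold was 33.0 (limma adjusted p = 0.00575).

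In the opposite direction, Ces1c, a secreted carboxylesterase, read 17.9 and 22.4 in domesticus and 542 and 628 in ssp. Tnnc1, the troponin C of slow skeletal and cardiac muscle, read 20.7 and 7.0 in domesticus and 437 and 579 in ssp. In both genes 1 domesticus array was at the floor and both ssp arrays were well above it. With that array raised to the floor the folds are lower bounds, at least 28.5-fold for Ces1c (limma adjusted p = 0.0115) and at least 25.6-fold for Tnnc1 (limma adjusted p = 0.00575).

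The 250 bases before the annotated start of these 4 genes are shown because they had the largest called differences, a pair in each direction. They are RefSeq sequence of assembly GRCm38.p6, 5′ to 3′ on the gene's strand, with capitals marking every match on either strand to 4 motifs. These are TATAA from the TATA box, CCAAT from the CCAAT box, CANNTG as the E-box and TGACGTCA as the cyclic AMP response element. Agt lies on the minus strand of chr8:124569707-124569956, Ckmt2 on the minus strand of chr13:91876886-91877135, Ces1c on the minus strand of chr8:93131284-93131533 and Tnnc1 on the plus strand of chr14:31208062-31208311.
Agt: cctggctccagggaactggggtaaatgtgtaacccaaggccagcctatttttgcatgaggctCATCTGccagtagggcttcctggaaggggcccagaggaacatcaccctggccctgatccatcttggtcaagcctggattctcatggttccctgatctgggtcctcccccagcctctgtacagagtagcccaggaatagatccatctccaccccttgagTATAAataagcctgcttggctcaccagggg
Ckmt2: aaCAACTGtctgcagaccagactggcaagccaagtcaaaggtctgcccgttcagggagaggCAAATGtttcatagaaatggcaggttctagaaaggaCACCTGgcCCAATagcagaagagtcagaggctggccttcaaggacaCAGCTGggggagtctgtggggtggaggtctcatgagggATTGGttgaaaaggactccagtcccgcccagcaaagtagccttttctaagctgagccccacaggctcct
Ces1c: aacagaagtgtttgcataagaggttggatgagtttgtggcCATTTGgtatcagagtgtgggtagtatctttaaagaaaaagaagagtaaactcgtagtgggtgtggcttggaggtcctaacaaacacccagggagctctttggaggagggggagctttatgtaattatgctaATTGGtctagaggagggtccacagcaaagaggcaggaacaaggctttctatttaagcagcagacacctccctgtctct
Tnnc1: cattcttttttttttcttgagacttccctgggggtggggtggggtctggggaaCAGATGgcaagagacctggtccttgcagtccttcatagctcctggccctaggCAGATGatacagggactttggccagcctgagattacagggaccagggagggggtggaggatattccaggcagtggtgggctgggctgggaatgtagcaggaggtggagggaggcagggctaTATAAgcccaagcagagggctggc
Agt and Tnnc1 each have 1 TATAA match, and Ckmt2 and Ces1c have CCAAT matches instead, 2 and 1. CANNTG occurs 4 times in Ckmt2, 2 times in Tnnc1 and once in each of the other two. TGACGTCA is in none of the 4 windows. Over the 32851 promoter windows of the same length, TATAA is in 22.8%, CCAAT in 33.8%, CANNTG in 66.2% and TGACGTCA in 1.55%. A match is a run of letters only, and nothing in these arrays bears on whether a factor binds there.

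Cck, Egf and Pla2g12a, whose products are secreted, were called higher in domesticus. Cck, the precursor of the peptide cholecystokinin, read 389 and 352 in domesticus and 35.5 and 30.2 in ssp, an 11.3-fold difference (limma adjusted p = 0.00741). Egf, the epidermal growth factor precursor, read 325 and 505 in domesticus against 23.9 and 33.0 in ssp, 14.4-fold. Pla2g12a, a secreted phospholipase A2, read 6351 and 8810 in domesticus against 559 and 731 in ssp, 11.7-fold. For these 3 genes the domesticus arrays were all above the ssp arrays, and for Pla2g12a both groups were bright. Klk1b8, a kallikrein-related peptidase, was 7.65-fold higher in domesticus, the synaptic ligand Nxph1 5.89-fold and the iron-siderophore carrier Lcn2 5.11-fold.

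Higher in ssp were Lalba and Ltbp2. Lalba, the alpha-lactalbumin of milk, read 11.7 and 15.3 in domesticus, under the floor, and 300.3 and 287 in ssp, which is at least 15.7-fold (limma adjusted p = 0.00971). Ltbp2, a matrix protein of the latent TGF-beta binding family, read 26.8 and 36.3 in domesticus and 415 and 338 in ssp, 12.01-fold (limma adjusted p = 0.0203). Cck and Lalba were each near the floor in 3 of the study's 4 groups: Cck had geometric means of 18.7 in both castaneus and musculus, and Lalba of 18.8 and 24.0.

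In the wider lists of these systems 1 gene passed in each. Of 24 tested genes for neuropeptides and peptide hormones, each taken at its brightest probe set, Cck was the 1 that passed. Over all 6581 genes tested the same count was 45 (0.684%), with 29 higher in domesticus (0.441%) and 16 higher in ssp (0.243%), and 812 had an unadjusted p under 0.05. Pomc, the precursor of ACTH and the endorphins, read 440 and 456 in domesticus and 1154 and 1073 in ssp (limma adjusted p = 0.0981). Of 8 tested genes of the renin-angiotensin system, Agt passed and the other 7 did not. Ace, the converting enzyme with a sperm-specific form, read 548 and 782 in domesticus and 836 and 1030 in ssp, and Agtrap, which binds the type 1 receptor, 135 and 169 against 363 and 343 (limma adjusted p = 0.236).

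Enzymes that oxidise alcohols and aldehydes were among the calls higher in domesticus. Adh1, an alcohol dehydrogenase that also oxidises retinol, read 500.3 and 773 in domesticus against 60.5 and 18.9 in ssp, an 18.4-fold difference (limma, SE 0.59, adjusted p = 0.0460). Aldh2, the mitochondrial aldehyde dehydrogenase, read 1059 and 890.2 against 151 and 99.1, 7.93-fold (limma adjusted p = 0.0207). Aldh9a1, which oxidises aminoaldehydes, was 7.84-fold higher in domesticus (limma adjusted p = 0.0316). In all 3 the domesticus arrays lay above both ssp arrays. Aldh1a1, a retinaldehyde dehydrogenase, had the same order at high intensity, with 7532 and 9382 against 2368 and 2583, and did not pass (limma adjusted p = 0.0626).

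By the brightest probe set of each gene, 2 of 19 tested genes of alcohol, aldehyde and retinoid metabolism passed, both higher in domesticus, and 3 did by any probe set. Both domesticus arrays lay above both ssp arrays in 7 of the 19 and below them in 3, against 20% and 22.6% of all genes tested. The list's median log2 difference was 0.24, and that of all genes was -0.03.

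Other called enzymes belong to energy and carbon metabolism. Tkt, the transketolase of the pentose phosphate pathway, read 484 and 463 in domesticus and 69.8 and 71.8 in ssp, a 6.69-fold difference with almost no spread inside either group (limma adjusted p = 0.0203). Oxct1, which activates ketone bodies in mitochondria, was 6.71-fold higher in domesticus, and the carnitine acetyltransferase Crat 4.44-fold. The brighter probe set of Crat was 1.33-fold higher and did not pass (limma adjusted p = 0.551). Tkt was the 1 of 9 tested pentose phosphate genes that passed, and none of 30 genes of glycolysis, pyruvate dehydrogenase and lactate passed limma, with 0 at an unadjusted p under 0.05. In that glycolytic list, domesticus lay above ssp on both arrays in 3 genes and below in 4, against 20% and 22.6% of all genes tested.

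Cox6b2 encodes a subunit of cytochrome c oxidase in a form made in testis. Its called probe set read 722 and 592 in domesticus and 6171 and 12374 in ssp, 13.4-fold (limma, SE 0.38, adjusted p = 0.0207), with the 2 ssp arrays further apart than the domesticus arrays. Its brightest probe set, at geometric means of 20029 in domesticus and 26523 in ssp, differed 1.32-fold and did not pass (limma adjusted p = 0.559). Over 61 respiratory chain and ATP synthase genes none passed limma by the brightest probe set, 9 had an unadjusted p under 0.05, 27 had a positive difference, against 47.3% of all genes tested, and the median was -0.08, which turned positive in 3 alternatives, up to 0.10 without ssp replicate 2. Ndufc1, a complex I subunit, read 7727 and 10206 in domesticus and 982 and 1510 in ssp without passing (limma adjusted p = 0.0555).

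Several genes used by steroid-producing cells were higher in domesticus. Star, which carries cholesterol into mitochondria for steroid synthesis, read 352 and 437 in domesticus and 118 and 121 in ssp. Gstm1, a glutathione transferase abundant in Leydig cells, read 16964 and 16093 against 3650 and 4310. Both groups were tight in these genes, and the folds were 3.28 for Star (limma adjusted p = 0.0499) and 4.17 for Gstm1 (limma adjusted p = 0.0316). Dimmer second probe sets did not show this. Their geometric means in domesticus and ssp were 141 and 142 for Star and 381 and 458 for Gstm1. Hsd17b11, a hydroxysteroid dehydrogenase of lipid droplets, was 3.01-fold higher in domesticus (limma adjusted p = 0.0499). Abca1, which exports cellular cholesterol, read 339.9 and 336 against 25.7 and 26.7, 12.9-fold (limma adjusted p = 0.0203). A brighter Abca1 probe set read 387 and 412 against 195.5 and 234, 1.87-fold, and did not pass (limma adjusted p = 0.329).

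Of 16 tested genes on the Leydig cell list, Star and Gstm1 passed, 12 had a positive log2 difference and 7 had both domesticus arrays above both ssp arrays, with 2 in the opposite order. Over all genes tested 47.3% were positive, 20% had both domesticus arrays on top and 22.6% both ssp arrays. The list's median was 0.43. Hsd3b6, the adult Leydig form of 3-beta-hydroxysteroid dehydrogenase, read 339.5 and 304 in domesticus and 129.5 and 104 in ssp (limma adjusted p = 0.242). Hsd17b3, which makes testosterone, read 364 and 349 against 143 and 194 (limma adjusted p = 0.246). Insl3, the Leydig hormone of testis descent, ran the other way, at 87.9 and 27.4 against 117 and 192, and Hsd3b1 had a log2 difference of 0.00. The summed intensity of the 16 genes was 30538 and 31158 in domesticus and 14752 and 17241 in ssp. Gstm1 alone, on a probe set with the _f suffix, gave 16964 and 16093 of the domesticus sums. It gave 3650 and 4310 of the ssp sums, so most of the gap between the sums came from Gstm1. Sertoli cell genes, 19 tested, had a median of 0.17, with 0 called by limma and 3 at an unadjusted p under 0.05.

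Genes of antigen presentation and antibodies also stood among the calls. H2-Aa, the alpha chain of the class II molecule I-A, read 482 and 373 in domesticus and 24.9 and 47.1 in ssp, 12.4-fold (limma adjusted p = 0.0261). The class II genes H2-Ab1 and H2-Ea and the invariant chain Cd74 had the same order on all 4 arrays without passing. H2-Ab1 read 441 and 373 against 55.6 and 207 (limma adjusted p = 0.329), and Cd74 read 805 and 809 against 322 and 322.5 (limma adjusted p = 0.0920). The class II gene H2-Eb1 had a log2 difference of 0.00, and those of H2-DMb2 and H2-Oa were -1.86 and -1.67.

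Among the 22 tested genes of histocompatibility and antigen presentation, H2-Aa was the 1 that passed, 15 had a positive difference and 12 had both domesticus arrays above both ssp arrays, with 3 in the opposite order. The shares over all genes tested were 47.3%, 20% and 22.6%. The median was 0.63, which was the largest positive median of the 32 lists. Of 18 macrophage genes, 1 passed, which was Ncf1, higher in ssp. Both domesticus arrays were on top in 7 of the 18, which were Mpeg1, Tyrobp, Ctss, Fcgr3, Lyz2, C1qa and Cyba. Both ssp arrays were on top in 3, which were Ncf1, Msr1 and Fcgr1. Msr1 read 88.6 and 76.8 in domesticus and 186.5 and 281.8 in ssp. Their median was 0.03, which was the lowest over the alternatives and reached 0.49 without ssp replicate 2. Their summed intensity was 4585 and 4533 in domesticus and 3931 and 5204 in ssp. Csf1r read 420 and 672 in domesticus and 444 and 872 in ssp, and the T cell gene Cd4 read 362 and 393 against 212 and 590, so the groups overlapped in both. The part of leukocyte content in the class II values was not tested.

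Probe sets for antibody chains that passed were higher in domesticus. Ighg3 read 353 and 331 in domesticus and 49.1 and 6.3 in ssp, at least 11.3-fold (limma adjusted p = 0.0456), and Ighm was 6.12-fold higher. Ighv1-54, a heavy chain variable segment, read 312 and 415 against 31.2 and 49.5, 9.16-fold (limma adjusted p = 0.0316). All 3 probe sets carry the _f suffix, so related antibody genes may share their signal. The other tested probe sets were divided. For Ighg3, those with the _f suffix were 5.82-fold and 6.31-fold higher in domesticus. With overlapping arrays, another was 1.15-fold higher and another 1.72-fold lower. For Ighm, those with _f or _s were 1.43-fold to 5.51-fold higher, and those with no suffix 1.15-fold and 1.12-fold with overlapping arrays. Of 12 B cell and immunoglobulin genes at their brightest probe set, 0 passed limma, 0 had an unadjusted p under 0.05, 4 had a positive difference and the median was -0.36. That median changed sign when the filter was set at the 60th percentile, to 0.22, or on these 4 arrays alone, to 0.04. Itgae, the alpha chain of an epithelial-homing integrin of lymphocytes, was 7.04-fold higher in domesticus, but 1.60-fold on its brighter probe set, which did not pass (limma adjusted p = 0.396).

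Immune genes were called in ssp too. Ncf1, a cytosolic subunit of the phagocyte NADPH oxidase, read 19.2 and 19.9 in domesticus and 340 and 651 in ssp, 24.1-fold (limma, SE 0.43, adjusted p = 0.0203). Cr1l, a complement regulator, read 48.6 and 40 against 249 and 315, 6.35-fold (limma adjusted p = 0.0261). Both genes were dim in domesticus, just above the floor for Ncf1. Socs2, an inhibitor of cytokine and growth hormone signalling, read 49.2 and 49.0 against 256 and 236, 5.01-fold (limma adjusted p = 0.0207). Tyrobp, a myeloid adaptor on the same macrophage list as Ncf1, was in the opposite order, at 184 and 109.5 in domesticus and 39.4 and 48.0 in ssp (limma adjusted p = 0.112).

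Genes known from striated muscle or calcium handling were called mainly higher in ssp, with Ckmt2 as the exception. Stac, an adaptor protein on the calcium handling list, read 136 and 158.5 in domesticus and 2362 and 2505 in ssp, 16.6-fold (limma adjusted p = 0.00575). Atp2a1, the calcium pump of fast muscle, read 64.3 and 46.7 against 362 and 313, 6.14-fold (limma adjusted p = 0.0316). Cav3, the muscle caveolin, read 7.3 and 2.9 against 124 and 205, at least 8.53-fold (limma adjusted p = 0.0410). All 3, like Tnnc1, had both ssp arrays above both domesticus arrays.

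On the list of striated muscle genes 26 were tested: Ckmt2 passed higher in domesticus, and Tnnc1 and Atp2a1 passed higher in ssp. Both ssp arrays were above both domesticus arrays in 11 of the 26 and below in 6, against 22.6% and 20% of all genes tested. The median was -0.35, and -0.01 with the filter at the 60th percentile. Of 19 genes of calcium handling and contraction control, Stac and Atp2a1 passed, 11 had both ssp arrays on top and 3 both domesticus arrays, with a median of -0.34. The members did not move as one: Tnnt2, cardiac troponin T, read 47.1 and 13.9 in domesticus against 90.4 and 252 in ssp, while Myh7, the slow myosin heavy chain, read 176 and 158 against 73.0 and 60.6. Acta1, the actin of skeletal muscle, was at the floor on all 4 arrays. The summed intensity of the 26 genes was 8957 and 8624 in domesticus and 8740 and 9105 in ssp, so the groups' sums overlapped.

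Among smooth muscle and blood genes there was 1 call, higher in ssp. Of 12 genes of peritubular and smooth muscle cells, 0 passed limma and 2 had an unadjusted p under 0.05. In 7 of the 12, both ssp arrays lay above both domesticus arrays, against 22.6% of all genes tested, in none was it the reverse, and the median was -0.44. Slc4a1, the anion exchanger of red cells, read 23.7 and 18.4 in domesticus and 175 and 116 in ssp, at least 6.77-fold, and was the 1 of 7 red cell genes that passed (limma adjusted p = 0.0295). None of the 7 red cell genes had a positive difference, 3 had both ssp arrays on top, none the reverse, and the median was -0.43. Hbb-b2, a beta globin, read 86.3 and 110 in domesticus and 478 and 307 in ssp, 3.93-fold without passing (limma adjusted p = 0.111). Hba-a1, an alpha globin, read 2923 and 1364 against 4975 and 1448, so its groups overlapped. The summed intensity of the 7 genes was 4110 and 2379 in domesticus and 7053 and 2979 in ssp. The part of blood content in the Slc4a1 value was not tested.

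Over the lists of spermatogonial, meiotic, spermatid chromatin, acrosome and sperm tail genes there was 1 call. Syce2, a central element protein of the synaptonemal complex that joins chromosomes in meiosis, read 1174 and 1652 in domesticus and 267 and 240 in ssp, 5.50-fold (limma adjusted p = 0.0275). It was the 1 of 13 meiotic spermatocyte genes that passed. Nobox and Spin1 were called as well and are on none of the lists. Nobox, a homeobox gene known for its role in oocytes, read 32.1 and 18.9 in domesticus and 220.2 and 188.5 in ssp, 8.27-fold. Spin1, a histone-reading protein of the spindlin family, read 24.6 and 34.8 against 166 and 185.5, 6.005-fold (limma adjusted p = 0.0328). On these probe sets Nobox and Spin1 were dim in domesticus, and the groups did not overlap. The other tested probe sets of Spin1 did not show this: the brightest read 598 and 741 in domesticus and 668 and 771 in ssp (limma adjusted p = 0.927), and another had geometric means of 159 and 136. A further one, too dim to be tested, read 73.1 and 81.8 in domesticus and 30.5 and 20.2 in ssp, the opposite order.

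Sry, the Y-linked gene that sets testis fate in the embryo, read 44.9 and 64.9 in domesticus and 244 and 212 in ssp, 4.21-fold (limma adjusted p = 0.0362). In castaneus and musculus its geometric means were 46.2 and 64.2, close to domesticus. The other 3 tested Y-linked genes did not pass. Eif2s3y read 456 and 527 against 767 and 770.2 (limma adjusted p = 0.598), and Uba1y and Kdm5d had log2 differences of -0.24 and -0.02.

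Transcripts of late spermatids, near the top of the intensity range, did not pass, and most lay slightly higher in ssp. Prm1, protamine 1, read 43402 and 52736 in domesticus and 55467 and 83529 in ssp (limma adjusted p = 0.622). Tnp2, a transition protein, read 64507 and 56240 against 78064 and 84310. Of 12 genes of spermatid chromatin, 0 passed limma, 0 had an unadjusted p under 0.05 and the median was -0.30. In 4 of the 12 both ssp arrays were on top and in none the reverse, against 22.6% and 20% of all genes tested. Of 13 sperm tail genes 0 passed limma and 2 had an unadjusted p under 0.05, with a median of -0.15. Of 10 acrosome genes 0 passed limma and 0 had an unadjusted p under 0.05, with a median of 0.05, or -0.07 without domesticus replicate 2. Hspa2, the chaperone of meiotic and later germ cells, read 4543 and 4305 in domesticus and 9497 and 9382 in ssp without passing (limma adjusted p = 0.129).

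In protein turnover, Psma3, an alpha subunit of the proteasome core, read 4710 and 5684 in domesticus and 746 and 983 in ssp, 6.04-fold (limma adjusted p = 0.0207). It was the 1 of 37 proteasome genes that passed, and the list's median was 0.12. Psme1, a subunit of the proteasome activator induced by interferon, read 317 and 381 against 71.1 and 107 (limma adjusted p = 0.0618). Dnajb2, a co-chaperone that hands clients to the proteasome, read 4517 and 3608 against 892 and 953, 4.38-fold (limma adjusted p = 0.0295), the 1 of 52 chaperone genes that passed.

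**Figure D2:**
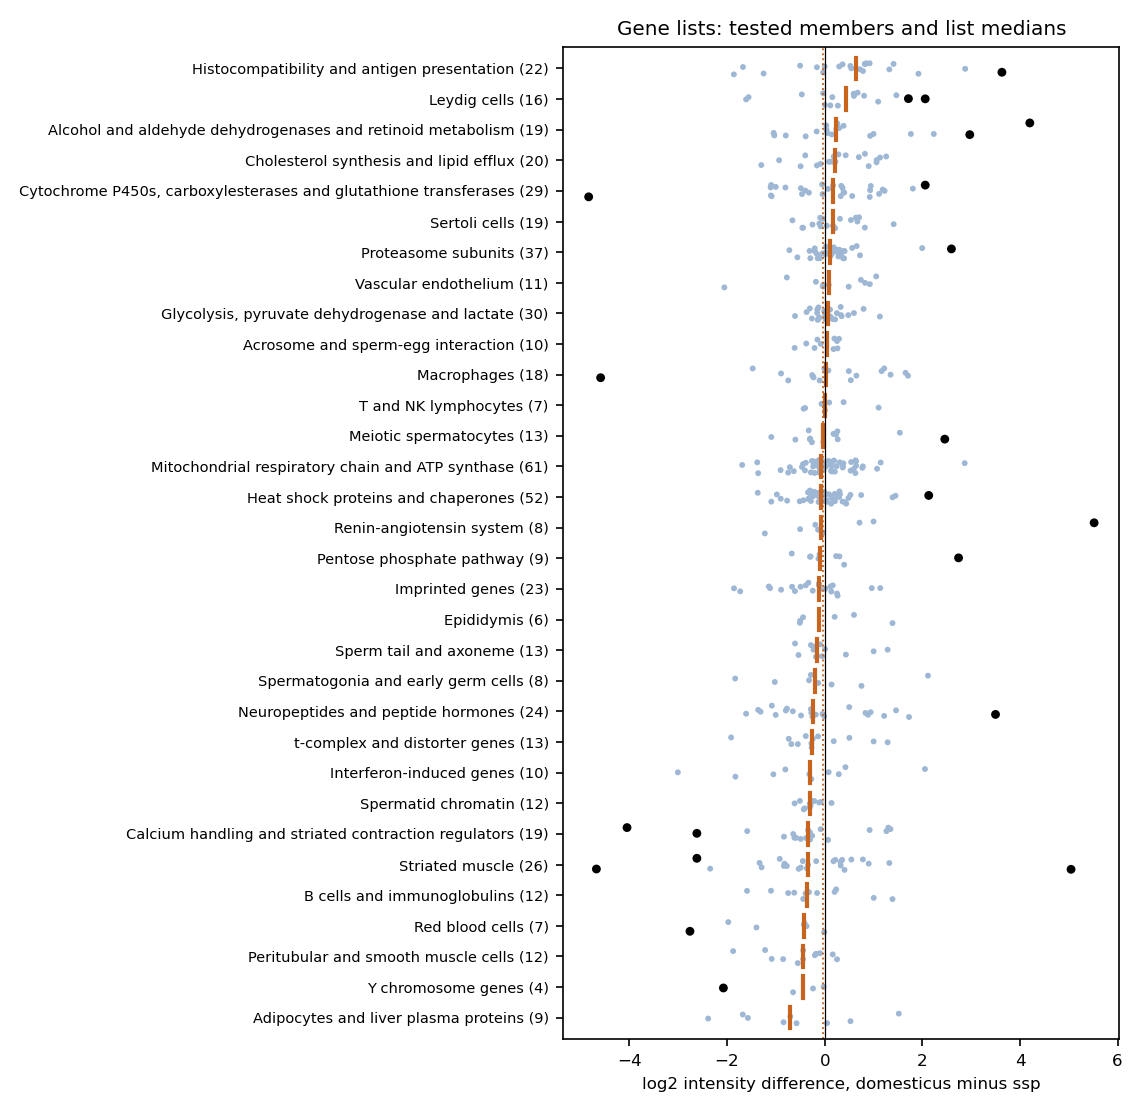
Log2 difference, domesticus minus ssp, of the tested members of each gene list (points, 1 per gene at its brightest probe set) with the list's median (vertical bar); black points passed limma, the number tested is in brackets and the dotted line is the median of all genes tested. Medians ran from -0.70 for adipocyte and liver plasma proteins to 0.63 for histocompatibility and antigen presentation.

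Lists of other detoxifying, lipid, developmental and chromosomal genes held few calls. Of 29 cytochrome P450s, carboxylesterases and glutathione transferases, Gstm1 passed higher in domesticus and Ces1c higher in ssp, with a median of 0.17. Gstm5, a glutathione transferase abundant in testis, read 51250 and 45866 in domesticus and 61723 and 72541 in ssp, the reverse order of Gstm1. Of 20 genes of cholesterol synthesis and lipid efflux, none passed limma at the brightest probe set and 5 had an unadjusted p under 0.05, with a median of 0.21. Of 23 imprinted genes none passed limma, 4 had an unadjusted p under 0.05 and the median was -0.12, or 0.07 without domesticus replicate 2. Of 13 t-complex and distorter genes, which include those behind biased transmission of a chromosome through sperm, none passed limma and 4 had an unadjusted p under 0.05, with a median of -0.27.

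Of 9 tested genes of adipocytes and liver plasma proteins, none passed limma and 1 had an unadjusted p under 0.05. In 5 of them both ssp arrays lay above both domesticus arrays, against 22.6% of all genes tested. The median was -0.70, and -0.02 with the filter at the 60th percentile. Fabp4, the fatty acid binding protein of fat cells, read 25.8 and 36.1 in domesticus and 131 and 195 in ssp (limma adjusted p = 0.451). The summed intensity of the 9 genes was 1818 and 1564 in domesticus and 2195 and 2186 in ssp. The part of adjoining fat in values such as these was not tested.

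The remaining calls belong to none of the groups above. Chl1, a neural cell adhesion molecule, was bright in both groups, at 5041 and 6894 in domesticus and 771 and 816 in ssp, 7.43-fold (limma adjusted p = 0.0285). Snn, the small membrane protein stannin, read 567 and 492 against 19.8 and 34.8, 20.1-fold (limma adjusted p = 0.0207). Rabggta, the alpha subunit of the enzyme that attaches lipid to Rab proteins, read 1329 and 804 against 45.4 and 83.7, 16.8-fold (limma adjusted p = 0.0352). Syt11, a synaptotagmin of vesicle traffic, read 597 and 511 against 30.9 and 64.4, 12.4-fold (limma adjusted p = 0.0251). Every array of domesticus exceeded both ssp arrays in these genes.

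Ctnna2, the neural alpha catenin, read 155 and 172 in domesticus and 11.6 and 19.7 in ssp, at least 8.52-fold with 1 ssp array at the floor (limma adjusted p = 0.0115). Tmed3, a cargo receptor of the early secretory pathway, was 3.88-fold higher in domesticus, the scaffold kinase Cask 3.83-fold and the glutamate receptor subunit Grin2b 3.27-fold. Tspyl4, a nucleosome-assembly-like protein, was 6.45-fold higher and the mitochondrial ribosomal protein Mrps21 5.06-fold. Gm2022 and 1110008P14Rik, gene models whose roles are not described here, were at least 6.19-fold and 3.38-fold higher.

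Erbb3, a receptor of neuregulins, read 11.6 and 49.1 in domesticus and 445 and 332 in ssp, at least 12.7-fold (limma, SE 0.47, adjusted p = 0.0348). Prr15, a proline-rich protein, read 35.8 and 45.8 against 331 and 264, 7.30-fold. For both, the lower group was dim and 1 domesticus array of Erbb3 was at the floor. Serpinb6a, an intracellular protease inhibitor, read 187 and 179 against 953 and 781, 4.71-fold (limma adjusted p = 0.0256). Htr5b, a serotonin receptor, was 4.53-fold higher in ssp, and Qrich1 4.15-fold, at 320.2 and 337 against 1380 and 1345.

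**Figure D3:**
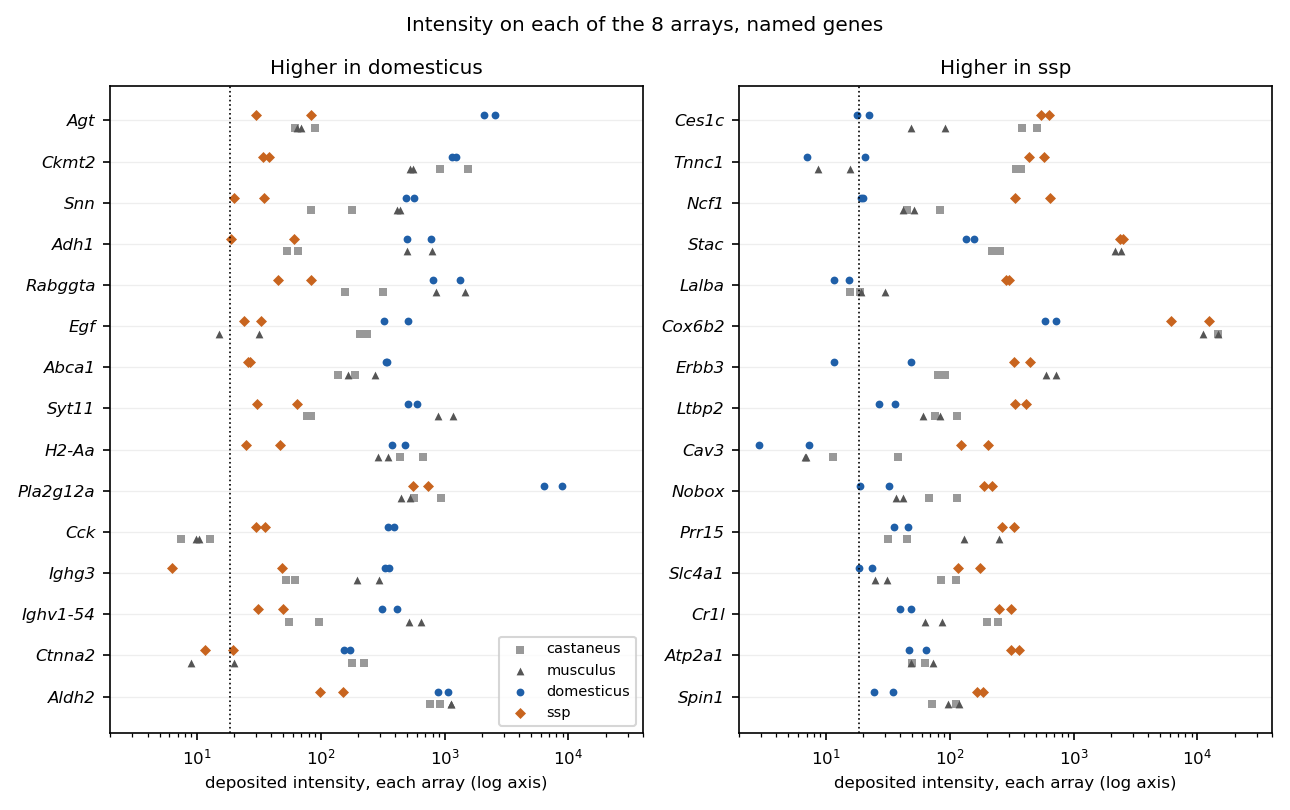
Intensity on each of the 8 arrays (log scale) for the 15 genes with the largest called difference in each direction; the dotted line marks the floor of 18.7. The domesticus and ssp points do not overlap in any of the 30 genes, and the castaneus and musculus points fall near one group, the other or between.

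The castaneus and musculus arrays, which share the fit, give levels to set beside the called ones. In 20 of the 61 called probe sets both lay nearer to domesticus on the log2 scale, and in 18 both lay nearer to ssp. In 16 only musculus was nearer to domesticus, and in 7 only castaneus was. Over all probe sets tested, the shares were 31.4% for both nearer to domesticus, 27.1% for both nearer to ssp, 21.0% for musculus only and 20.5% for castaneus only. The calls with both nearer to domesticus, or both nearer to ssp, lay near these shares. No test was made of these counts.

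Ckmt2 was an unusually low value in ssp: the geometric mean was 36.1 in ssp against 1192 in domesticus, 1190 in castaneus and 543 in musculus. H2-Aa had the same shape, at 541 in castaneus and 316 in musculus. Agt was unusually high in domesticus, at 2297, with 74.3 in castaneus and 66.7 in musculus beside 50.1 in ssp. On its called probe set Cox6b2 was low in domesticus alone, since castaneus and musculus reached 14750 and 12666. Its brightest probe set did not show this, at 20029 in domesticus, 26523 in ssp, 29031 in castaneus and 24464 in musculus. Ncf1 was high in ssp alone, with 61.5 in castaneus and 46.8 in musculus. Adh1 split the groups in pairs, with musculus at 629 near domesticus and castaneus at 59.4 near ssp. Tnnc1 split them the other way, with castaneus at 358 near ssp and musculus at 18.7, the floor, beside domesticus.

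Second probe sets of a called gene gave an internal check that the call did not use. Of the 58 called genes, 17 had 29 other tested probe sets, and 23 of these 29 had the same direction. In 14 of the 29 both arrays of the higher group were above both of the lower, and 1 had that separation the other way. Over all probe sets tested, 19.1% had both domesticus arrays on top and 22.9% both ssp arrays. None of the 29 passed limma at the adjusted threshold, and 9 had an unadjusted p under 0.05, all in the direction of the call. Several of the 29, and of these 9, belong to Ighm and Ighg3. Antibody probe sets with the _f suffix may share signal, so the 29 are not independent. The median ratio of the other log2 difference to the called one was 0.11, so most were much smaller.

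Ckmt2 kept a large difference on its other tested probe set, with geometric means of 162 in domesticus and 40.5 in ssp, 4.01-fold (limma adjusted p = 0.316). Ighm had several others, of which the nearest to passing was 5.48-fold higher in domesticus (limma adjusted p = 0.0604). Cr1l and Cav3 had others that were 7.53-fold and 3.59-fold higher in ssp (limma adjusted p = 0.170 and 0.418). Aldh2 had one at 4.71-fold and a further one at 396.5 against 368. The second probe set of Star, at 141 in domesticus and 142 in ssp, had a log2 difference near 0 (limma adjusted p = 0.995). That of Gstm1 read 381 against 458, lower in domesticus, and both others of Ctnna2 were lower in domesticus as well. Lcn2 and Pla2g12a had second probe sets that were 1.09-fold and 1.31-fold higher in domesticus with overlapping arrays. The other tested probe sets of these 5 genes and Spin1 thus did not share the called difference. Those of Cox6b2 (1.32-fold and 1.17-fold), Crat (1.33-fold), Itgae (1.60-fold) and Abca1 (1.87-fold) had the called direction at a much smaller fold. No called gene had a second called probe set, so every call rests on 1 probe set.

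**Figure D4:**
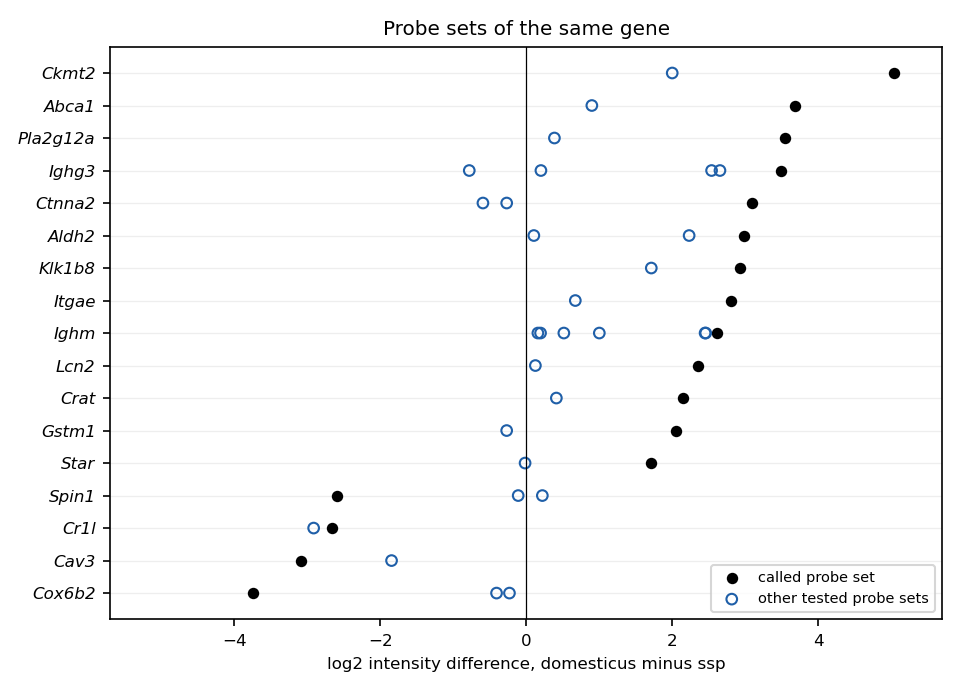
Log2 difference, domesticus minus ssp, for the called probe set (filled) and the other tested probe sets (open) of 17 genes, 1 gene per line. Of the 29 open points, 23 fall on the same side of 0 as the filled point, and most lie nearer to 0.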

How the data were processed

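Total RNA of testis was hybridised to Affymetrix arrays, 8 arrays in 4 groups of 2, per the labels. The authors deposited linear intensities for 12422 probe sets. The mean of each array after trimming 2% at each end was nearly equal, so the deposited values had already been scaled. The method that summarised the probes was not stated in the labels. Symbols came from the platform annotation, updated through RefSeq: 10833 probe sets had 1 symbol, 396 several and 1193 none.

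Intensities under the 10th percentile, 18.7, were raised to it and log2 was taken. Probe sets at or above the 40th percentile of an array on 2 or more of the 8 arrays were tested, 8874 in all. limma 3.58.1 in R 4.3.3 fitted 1 mean per group over all 8 arrays, and the domesticus minus ssp contrast was adjusted by Benjamini-Hochberg over all tested probe sets. The fit had 4 residual and 2.34 prior degrees of freedom, and the code was tested on simulated data. A call needed an adjusted p under 0.05 and at least a 2-fold difference. Folds are ratios of geometric means of 2 arrays. The number of arrays limits the precision. Full values are given for the 15 called genes of each direction that differed most, and for list members by their size, with further list members named after their values were seen. Lists held 933 genes, of which 579 were tested, each at its brightest probe set. The members and lists were chosen with earlier results of these data known. The alternatives tried were the floor, the filter, median centring, quantile normalization, a trended variance, the 4 arrays alone, the replicate block and leaving out each array.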

Additional observations from a re-analysis of the deposited data

How the results depend on the processing

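The counts of 41 (higher in domesticus) and 20 (higher in ssp) became 65 and 33 with the floor at the 20th percentile, 13 and 8 with no filter, 89 and 41 with the filter at the 60th percentile, and 107 and 46 with a trended, robust variance. With the filter on the domesticus and ssp arrays alone, 68 were higher in domesticus and 30 in ssp. With these 4 arrays alone in the fit limma called 0 and 0, with 939 at an unadjusted p under 0.05. Leaving out each array in turn gave 0 to 12 higher in domesticus and 0 to 4 higher in ssp. No floor, median centring and quantile normalization gave totals of 54, 54 and 62, of which 53, 50 and 56 were among the 61. With the replicate number as a block, 13 and 9 were called, 20 of these 22 among the 61. The replicate numbers are not known to pair the arrays, and the deviations of same-numbered domesticus and ssp arrays correlated at 0.17 across probe sets. No called probe set changed direction in any alternative that tested it, but groups that do not overlap fix that direction in part. Of the 61, 47 were tested with the filter at the 60th percentile. With the filter on the domesticus and ssp arrays 60 were tested, and with an array left out 55 to 57. The histocompatibility median ranged from 0.35 to 0.78 and the Leydig median from 0.27 to 0.63 over the alternatives, while the striated muscle median ranged from -0.46 to -0.01. Where the lower group is at or near the floor, signal over background limits the fold.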

Other observations

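Some genes just outside the threshold, named here after their values were seen, add groups that the comparison does not describe. Higher in domesticus on both arrays, without passing, were the adhesion molecule Vcam1, at 1226 and 1294 against 402 and 479, and Frzb, a secreted Wnt antagonist, at 224 and 285 against 61.3 and 61.0 (limma adjusted p = 0.0618 for each). Hmgn1, a nucleosome-binding protein, read 3974 and 4597 against 754 and 1290 (limma adjusted p = 0.0618). Fh1, the fumarase of the citric acid cycle, read 1257 and 1371 against 514 and 406.5 (limma adjusted p = 0.0685).

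Higher in ssp on both arrays, again without passing, were Plk1, a mitotic kinase, at 463 and 623 in domesticus against 1663 and 1649 in ssp, and Lifr, the receptor of leukaemia inhibitory factor, at 68.5 and 66.5 against 279 and 263 (limma adjusted p = 0.0618 for each). Ccl5, a chemokine, read 39.2 and 42.2 against 470.5 and 332.5, and Col15a1, a basement membrane collagen, 24.0 and 21.7 against 138 and 94.8 (limma adjusted p = 0.0618 for each). Rpn1, a subunit of the enzyme that attaches N-linked glycans, had the second largest fold of any probe set with 1 symbol, at 824 and 955 in domesticus and 29.4 and 12.6 in ssp, and missed the threshold (limma adjusted p = 0.0520).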
